A study of Homo sapiens with 24 samples.

Results

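The genes described are 44 genes of protein folding in the endoplasmic reticulum (ER): its chaperones and isomerases, its protein import channel, the machinery that removes misfolded proteins, and sensors of the unfolded protein response (UPR). They were taken as a list of gene symbols, and all 44 of 44 were found among the 60675 Ensembl genes of the count files. By role the list held 10 chaperones and co-factors of the Hsp70 and Hsp90 families, 3 genes of the lectin folding cycle, 8 disulfide and proline isomerases, 11 genes of ER-associated degradation (ERAD), 3 genes of UPR signalling and 9 genes of the translocon, the TRAP complex and signal peptidase. RNA was sequenced from MDA-MB-231 and MDA-MB-436, established triple-negative breast cancer lines, in 24 libraries. In each line 3 libraries were labelled MDM2 shRNA, 3 were treated with YX-2-30, an MDM2 PROTAC, 3 were labelled non-targeting shRNA and 3 were treated with DMSO, the vehicle. MDM2 is a ubiquitin ligase, an shRNA is a hairpin RNA meant to lower its target's messenger RNA, and a PROTAC is a compound that brings a target protein to a ubiquitin ligase for degradation. Neither the dose and time of YX-2-30 nor the sequence of either hairpin is given in the sources used here. The labels do not say whether replicate libraries came from separate cultures, so p-values measure only the spread between these libraries.

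Proteins that enter the secretory pathway are threaded into the ER through the Sec61 channel, lose their signal peptide, and fold with the help of the chaperone BiP (HSPA5), its co-chaperones, the lectins calnexin and calreticulin, and disulfide isomerases. Proteins that fail to fold are drawn back out by ERAD and degraded by the proteasome. When unfolded proteins build up, the sensors IRE1 (ERN1), ATF6 and PERK (EIF2AK3) start the UPR: IRE1 splices XBP1 messenger RNA, cleaved ATF6 enters the nucleus, and both raise the transcription of chaperone and ERAD genes through ER stress elements in their promoters, while PERK slows translation and induces ATF4 and DDIT3.

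Before the member values, the libraries were checked against their labels. MDM2 itself averaged 26.0 ± 3.77 CPM (counts per 1e6 library counts, scaled by TMM factors) in the MDM2 shRNA libraries of MDA-MB-231, against 17.7 ± 5.8 CPM in the non-targeting libraries, and 23.7 ± 7.68 CPM, against 25.4 ± 4.52 CPM, in MDA-MB-436 (SD, n = 3 each). It averaged 22.2 ± 2.01 CPM with the PROTAC, against 18.5 ± 4.78 CPM with DMSO, in MDA-MB-231, and 23.5 ± 1.71 CPM, against 36.0 ± 5.55 CPM, in MDA-MB-436. No change of MDM2 RNA was called (edgeR adjusted p = 0.137, 0.78, 0.513 and 0.0573 in that order), so the groups are named here by their labels. CDKN2A, deleted in MDA-MB-231, was at or under 0.15 CPM in all libraries of that line and between 65.7 and 101.2 CPM in MDA-MB-436, and CDH1 was under 1 CPM in both lines. Totals ran from 33.4 to 174.7 M counts per library (M, 1e6 counts), and the lowest count of any member in any library was 16.

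Short promoter sequences are shown first because they hold the elements through which ATF6 and XBP1 are known to act. RefSeq promoter windows (GRCh38.p14, 250 bases before to 50 bases after the start) matched 40 of the 44 members. The ER stress element ERSE was searched as CCAAT, 9 bases of any kind and CCACG, ERSE-II as ATTGG, 1 base of any kind and CCACG, and the XBP1 element as TGACGTGG, each on both strands. A gene with several windows was counted once, as matched if any of them held the element. ERSE lay in 8 of 40 members (20.0%), against 25 of all 27305 genes with a window (0.0916%). ERSE-II lay in 3 (7.5%), against 19 of all (0.0696%), and the XBP1 element in 4 (10.0%), against 253 of all (0.927%). Chaperone and ERAD genes are known for such elements, so higher shares among the members were foreseeable. The shares are a description and test nothing. The sequences below are those of the members the results turn on, read 5′ to 3′ on the gene's strand, with the element in capitals. Where the element reads on the opposite strand, the capitals begin with CGTGG.
HSPA5, ERSE, chr9:125241386-125241414, minus strand: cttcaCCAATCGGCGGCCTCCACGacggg
HSP90B1, ERSE, chr12:103930211-103930239, plus strand: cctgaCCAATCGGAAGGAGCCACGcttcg
HSP90B1, ERSE, chr12:103930316-103930344, plus strand: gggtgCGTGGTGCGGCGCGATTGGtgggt
CALR, ERSE, chr19:12938379-12938407, plus strand: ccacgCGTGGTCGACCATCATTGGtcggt
PDIA6, ERSE, chr2:10812848-10812876, minus strand: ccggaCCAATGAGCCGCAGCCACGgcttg
XBP1, ERSE, chr22:28800598-28800626, minus strand: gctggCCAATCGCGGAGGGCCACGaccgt
HYOU1, ERSE-II, chr11:119057269-119057289, minus strand: tgggaCGTGGTCCAATgagta
HYOU1, ERSE-II, chr11:119057375-119057395, minus strand: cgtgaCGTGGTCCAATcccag
HYOU1, XBP1 element, chr11:119057381-119057398, minus strand: ccccgTGACGTGGtccaa
SDF2L1, ERSE-II, chr22:21642109-21642129, plus strand: ggaagCGTGGACCAATcaaaa
HERPUD1, ERSE-II, chr16:56932020-56932040, plus strand: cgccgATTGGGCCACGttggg
In HYOU1 the XBP1 element overlaps the upstream ERSE-II, so these 2 matches share bases. CANX, CRELD2 and ERO1B also held an ERSE, and SSR3, TXNDC5 and TXNDC11 an XBP1 element. A match describes the letters in the window and does not show that a factor binds there.

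HSPA5, HSP90B1 and HYOU1, chaperones of the ER, were lower in the MDM2 shRNA and in the PROTAC libraries of both lines, while DNAJB9, a co-chaperone, was higher in MDA-MB-436. Of the 44 members, 17 (38.6%) were called lower and 0 higher with MDM2 shRNA in MDA-MB-231 (edgeR quasi-likelihood test, Benjamini-Hochberg adjusted p under 0.05). Of 20675 genes tested there, 11.6% were called lower and 11.1% higher. At an unadjusted p under 0.05, 21 members were lower and 4 higher in that comparison, beside 3412 and 3480 of the genes tested. With the PROTAC in MDA-MB-231, 19 members (43.2%) were lower and 1 (2.27%) higher, beside 11.5% and 11.1% of all genes. In MDA-MB-436, 23 members (52.3%) were lower and 6 (13.6%) higher with MDM2 shRNA, beside 14.4% and 16.0% of 22663 genes tested. The PROTAC in MDA-MB-436 gave 18 lower (40.9%) and 6 higher (13.6%) members, beside 15.1% and 17.3% of all genes. At an unadjusted p under 0.05 these 3 comparisons gave 19 lower and 3 higher, 25 and 8, and 22 and 7 members, beside 3553 and 3437, 4229 and 4754, and 4371 and 5048 genes. The members' median log2 change was -0.19 (MDM2 shRNA) and -0.15 (PROTAC) for MDA-MB-231, and -0.35 and -0.23 for MDA-MB-436, where the median over all genes tested was 0.01, -0.01, 0.04 and 0.04. Without TMM scaling the median of all genes shifted to 0.11, 0.08, 0.22 and 0.21, and the members' calls became 12 lower and 3 higher, 16 and 2, 16 and 7, and 15 and 7.

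The same 12 members were called lower in all 4 comparisons: HSPA5, HSP90B1, HYOU1, SDF2L1, MANF, CALR, UGGT1, PDIA4, PDIA6, PPIB, SEL1L and SSR2. In MDA-MB-231, 16 members were lower in both comparisons, and in MDA-MB-436 18 were lower and 5 higher in both. Across the comparisons 27 members were called lower at least once, 8 higher at least once, and 0 both ways. The other 9, called in no comparison, were CANX, DNAJB11, DNAJC3, EDEM3, SEC61A1, SPCS1, SPCS2, SSR1 and SYVN1. How many of all genes were called repeatedly in this way was not counted. These repeats therefore have no background beside them, and whether they are more frequent than among other genes was not tested. Some members were unevenly counted between replicates: in 10 of 44 the CPM differed by 1.5 times or more within a group. Over the other 34 members the summed level was 5733 ± 132 CPM with MDM2 shRNA, against 7311 ± 113.1 CPM with non-targeting shRNA, and 5773 ± 35.5 CPM with the PROTAC, against 7363 ± 44.8 CPM with DMSO, in MDA-MB-231 (SD, n = 3 each). The same sums in MDA-MB-436 were 4704 ± 35.7 CPM, against 7403 ± 171.8 CPM, and 4664 ± 36.8 CPM, against 7231 ± 54.5 CPM. The groups did not overlap in any of these 4 comparisons of sums. A sum of CPM weighs the most abundant members, such as HSPA5, HSP90B1 and CALR, which were themselves called lower. It largely repeats those calls and does not show the direction of each member. In bulk RNA, fewer cells of a kind and less RNA per cell cannot be told apart.

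**Figure D1:**
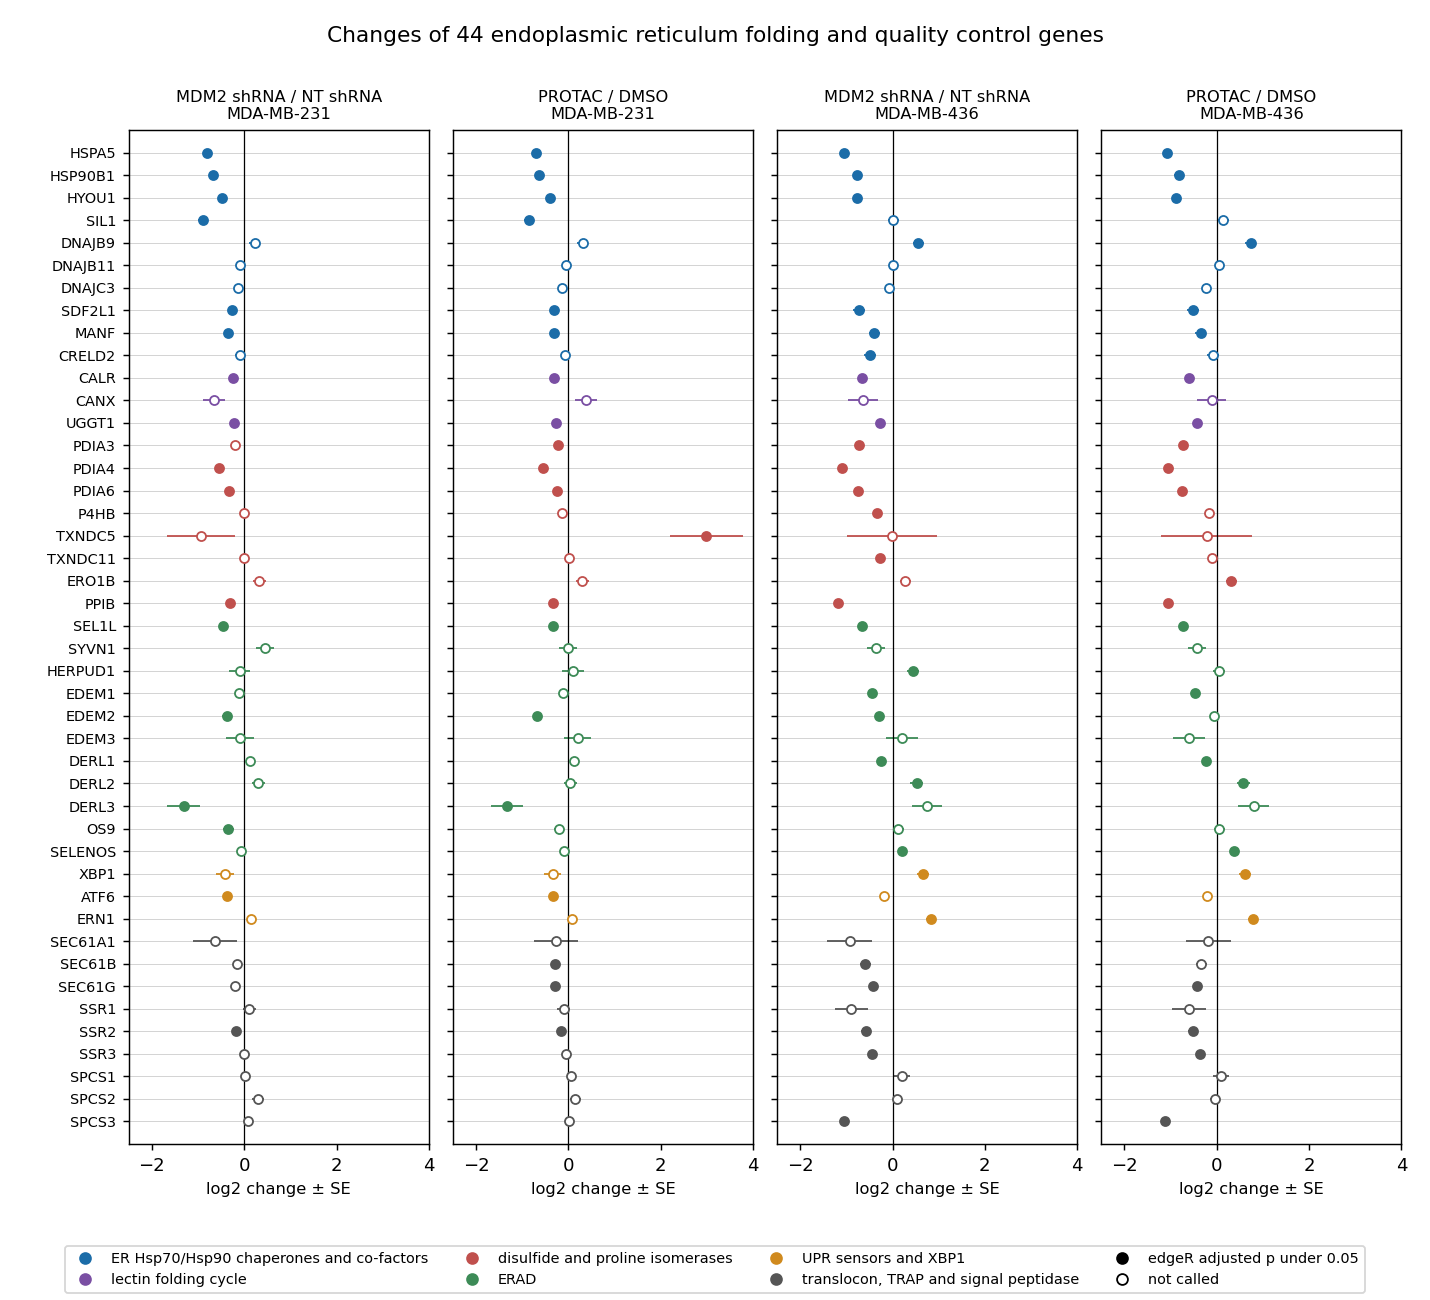
Log2 change of each member (x axis, with its SE as the bar) in a panel for each of the 4 comparisons of a treatment with its own control, members running down the page by role. Filled points passed edgeR's adjusted p of 0.05 and open points did not. HSPA5, HSP90B1, PDIA4 and PPIB lie left of 0 with a call in all 4, while XBP1, ERN1 and DNAJB9 lie right of 0 with a call in MDA-MB-436.

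Marker genes of cell state moved with the same groups. The summed level of VIM, AXL and CD44 was 4454.2 to 4663.8 CPM with MDM2 shRNA, against 7054.7 to 8580.3 CPM with non-targeting shRNA, and 4367.7 to 4676.4 CPM with the PROTAC, against 6966.2 to 7126.8 CPM with DMSO, in MDA-MB-231. These sums were, for MDA-MB-436, 1340.1 to 1368.4, against 1803.0 to 1942.5 CPM, and 1273.4 to 1377.8, against 2016.9 to 2075.9 CPM. The 5 epithelial markers EPCAM, KRT8, KRT18, KRT19 and CDH1 summed to 520.0 to 578.0 CPM with MDM2 shRNA, against 984.0 to 1120.5 CPM, and to 439.1 to 547.4 CPM with the PROTAC, against 854.9 to 913.2 CPM, in MDA-MB-436, while in MDA-MB-231 all groups lay between 882.9 and 971.7 CPM. KRT8 and KRT18 carried the sum in MDA-MB-436, where EPCAM went the other way without overlap, at 6.35 ± 0.323 CPM with MDM2 shRNA, against 4.24 ± 0.15 CPM, and 6.09 ± 0.326 CPM with the PROTAC, against 4.0 ± 0.763 CPM (SD, n = 3 each). RB1, reported lost in MDA-MB-436, was at 20.7 to 23.5 CPM with MDM2 shRNA, against 6.78 to 8.56 CPM, and at 22.0 to 34.2 CPM with the PROTAC, against 8.62 to 11.1 CPM, in that line. The 4 fibroblast markers summed to 29.6 to 31.4 CPM with MDM2 shRNA, against 14.2 to 16.5 CPM, and to 27.4 to 30.8 CPM with the PROTAC, against 14.4 to 18.2 CPM, in MDA-MB-231, with 3 of the 4 under 1 CPM. Leukocyte markers summed to at most 15.0 CPM and endothelial markers to at most 2.15 CPM in any library. The part of these markers in the member results was not tested.

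Among the 10 Hsp70 and Hsp90 chaperones and co-factors, 6 were lower in each MDA-MB-231 comparison, and 6 with MDM2 shRNA and 5 with the PROTAC in MDA-MB-436, where DNAJB9 was higher in both. HSPA5 (ENSG00000044574, chr9:125234853-125241330, minus strand, GRCh38), the ER Hsp70 that also holds the UPR sensors inactive, had 593.5, 544.5 and 580.3 CPM with MDM2 shRNA in MDA-MB-231, against 1009.4, 977.9 and 1008.3 CPM with non-targeting shRNA. It had 621.4, 589.6 and 600.8 CPM with the PROTAC, against 1002.3, 978.2 and 979.2 CPM with DMSO. In both comparisons every treated library was below every control library. In MDA-MB-436, HSPA5 had 579.2, 593.0 and 603.1 CPM with MDM2 shRNA, against 1219.7, 1202.2 and 1260.0 CPM, and 551.3, 599.3 and 534.8 CPM with the PROTAC, against 1186.3, 1209.9 and 1169.9 CPM. Again the groups did not overlap. The fold of treated over control was 0.574 (95% interval 0.542 to 0.607) and 0.612 (0.579 to 0.648) in MDA-MB-231, and 0.482 (0.445 to 0.522) and 0.473 (0.436 to 0.512) in MDA-MB-436, for MDM2 shRNA and the PROTAC in that order. Its edgeR adjusted p was 1.73e-07, 3.41e-07, 1.49e-07 and 1.15e-07.

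HSP90B1 (GRP94, ENSG00000166598), the ER Hsp90, followed HSPA5 in direction. It had 773.9, 678.3 and 768.1 CPM with MDM2 shRNA in MDA-MB-231, against 1186.1, 1169.6 and 1171.5 CPM, and 790.6, 785.3 and 757.1 CPM with the PROTAC, against 1176.3, 1222.9 and 1237.4 CPM. The MDA-MB-436 libraries had 375.3, 375.4 and 429.5 CPM with MDM2 shRNA, against 670.7, 645.4 and 685.6 CPM, and 337.1, 376.5 and 458.1 CPM with the PROTAC, against 644.5, 694.2 and 727.2 CPM. No treated library reached a control library in either line. The log2 change was -0.67 ± 0.047 and -0.64 ± 0.047 (SE) in MDA-MB-231 and -0.76 ± 0.1 and -0.82 ± 0.1 in MDA-MB-436, with edgeR adjusted p of 2.85e-06, 4.13e-06, 0.000169 and 9.42e-05.

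HYOU1 (ENSG00000149428), a large Hsp70-like protein that exchanges nucleotide on BiP, had 249.8, 231.1 and 248.5 CPM with MDM2 shRNA in MDA-MB-231, against 359.4, 340.2 and 312.5 CPM. With the PROTAC it had 210.9, 259.3 and 268.9 CPM, against 344.3, 339.0 and 282.8 CPM with DMSO. The groups lay apart in both, though the highest PROTAC library (268.9 CPM) lay close to the lowest DMSO library (282.8 CPM). In MDA-MB-436, HYOU1 had 127.3, 116.4 and 116.1 CPM with MDM2 shRNA, against 190.1, 192.0 and 229.7 CPM, and 117.9, 115.1 and 123.5 CPM with the PROTAC, against 225.4, 211.2 and 218.4 CPM, again with no overlap. The log2 change was -0.47 ± 0.099, -0.39 ± 0.099, -0.77 ± 0.078 and -0.88 ± 0.079 (SE; edgeR adjusted p = 0.00549, 0.0161, 2.4e-05 and 8.24e-06; MDA-MB-231 before MDA-MB-436). The PROTAC call in MDA-MB-231 was lost without DMSO replicate 1, DMSO replicate 2 or PROTAC replicate 1, at log2 changes of -0.36 to -0.29.

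SIL1 (ENSG00000120725), the other nucleotide exchange factor of BiP, was lower in MDA-MB-231 and not called in MDA-MB-436. It had 23.3, 24 and 28.6 CPM with MDM2 shRNA in MDA-MB-231, against 45.5, 46.9 and 48.3 CPM, and 20.7, 25.9 and 27.6 CPM with the PROTAC, against 46.8, 42.8 and 45.1 CPM. The treated and control libraries did not overlap, and the log2 change was -0.89 ± 0.11 and -0.86 ± 0.11 (SE; edgeR adjusted p = 0.000151 and 0.000204). In MDA-MB-436, SIL1 had 21.3, 20.5 and 21.3 CPM with MDM2 shRNA, against 19.9, 21.5 and 20.9 CPM, and 21.4, 17.5 and 14.9 CPM with the PROTAC, against 15.3, 16.9 and 16.8 CPM. Those groups overlapped, at log2 changes of 0.02 and 0.14 (edgeR adjusted p = 0.928 and 0.437).

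DNAJB9 (ERdj4, ENSG00000128590), a BiP co-chaperone of ERAD and a known XBP1 target that represses IRE1, was the one chaperone called higher, in MDA-MB-436. In MDA-MB-436 its level was 23.1, 22.5 and 24.1 CPM with MDM2 shRNA, against 16.5, 15.3 and 15.4 CPM, and 25.4, 23.2 and 32.0 CPM with the PROTAC, against 16.0, 14.7 and 17.5 CPM. The groups did not overlap, and the log2 change was 0.56 ± 0.12 and 0.74 ± 0.12 (SE; edgeR adjusted p = 0.0041 and 0.000661). In MDA-MB-231 it had 14.4, 15.5 and 14.8 CPM with MDM2 shRNA, against 13.2, 10.9 and 13.8 CPM, and 15.0, 18.2 and 13.4 CPM with the PROTAC, against 12.4, 12.9 and 12.4 CPM. The treated libraries were above the controls there too, without a call (log2 0.23 and 0.31; edgeR adjusted p = 0.202 and 0.0926).

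The remaining chaperones gave smaller values. SDF2L1, a partner of ERdj co-chaperones, was lower in all 4 comparisons, with log2 changes of -0.27 and -0.31 in MDA-MB-231 and -0.72 and -0.51 in MDA-MB-436. Its MDA-MB-231 calls were lost in 5 (MDM2 shRNA, log2 -0.28 to -0.24) and 3 (PROTAC, log2 -0.3 to -0.25) of the 12 fits that leave out 1 library. MANF, a secreted ER-stress protein that binds BiP, was lower by log2 changes of -0.34, -0.30, -0.39 and -0.35, and its PROTAC call in MDA-MB-436 was lost in 10 of the 12 fits that leave out 1 library of that line (log2 -0.38 to -0.22) and its MDM2 shRNA call there in 4 (log2 -0.4 to -0.36). CRELD2, an ER-stress-induced calcium-binding protein, was called only with MDM2 shRNA in MDA-MB-436, at a log2 change of -0.48 that lost its call without MDM2 shRNA replicate 2 (log2 -0.43). The co-chaperones DNAJB11 and DNAJC3 were not called in any comparison, at log2 changes between -0.23 and 0.05.

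In the lectin folding cycle, where calreticulin and calnexin hold glycoproteins until UGGT1 finds them folded, CALR and UGGT1 were lower in all 4 comparisons and CANX was not called. CALR had 1085.6, 1008.5 and 1042.2 CPM with MDM2 shRNA in MDA-MB-231, against 1264.5, 1226.8 and 1241.5 CPM, and 923.1, 1056.5 and 1071.5 CPM with the PROTAC, against 1250.4, 1238.6 and 1290.0 CPM. In MDA-MB-436 it had 498.0, 488.7 and 485.3 CPM with MDM2 shRNA, against 759.7, 759.1 and 804.1 CPM, and 460.9, 484.4 and 446.2 CPM with the PROTAC, against 697.9, 719.9 and 683.0 CPM. The groups lay apart throughout, at log2 changes of -0.25, -0.31, -0.66 and -0.59 (edgeR adjusted p = 0.00509, 0.00139, 3.01e-06 and 5.66e-06). UGGT1 changed by -0.22, -0.27, -0.27 and -0.43 on the log2 scale. Its MDM2 shRNA calls were lost without non-targeting replicate 2 or MDM2 shRNA replicate 2 in MDA-MB-231 (log2 -0.19 to -0.17), and in 5 of 12 fits that leave out 1 library in MDA-MB-436 (log2 -0.29 to -0.21). CANX was uneven within groups: with MDM2 shRNA in MDA-MB-231 it had 952.0, 535.0 and 583.0 CPM, against 1083.9, 1075.8 and 1118.3 CPM with non-targeting shRNA, while the DMSO libraries of that line had 1075.8, 611.4 and 600.0 CPM. Leaving out MDM2 shRNA replicate 1 or DMSO replicate 1 of MDA-MB-231 made its MDM2 shRNA change a call (log2 -0.97 to -0.68), and leaving out that DMSO library made its PROTAC change a call in the opposite direction (log2 0.71), so no direction is given for CANX.

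**Figure D2:**
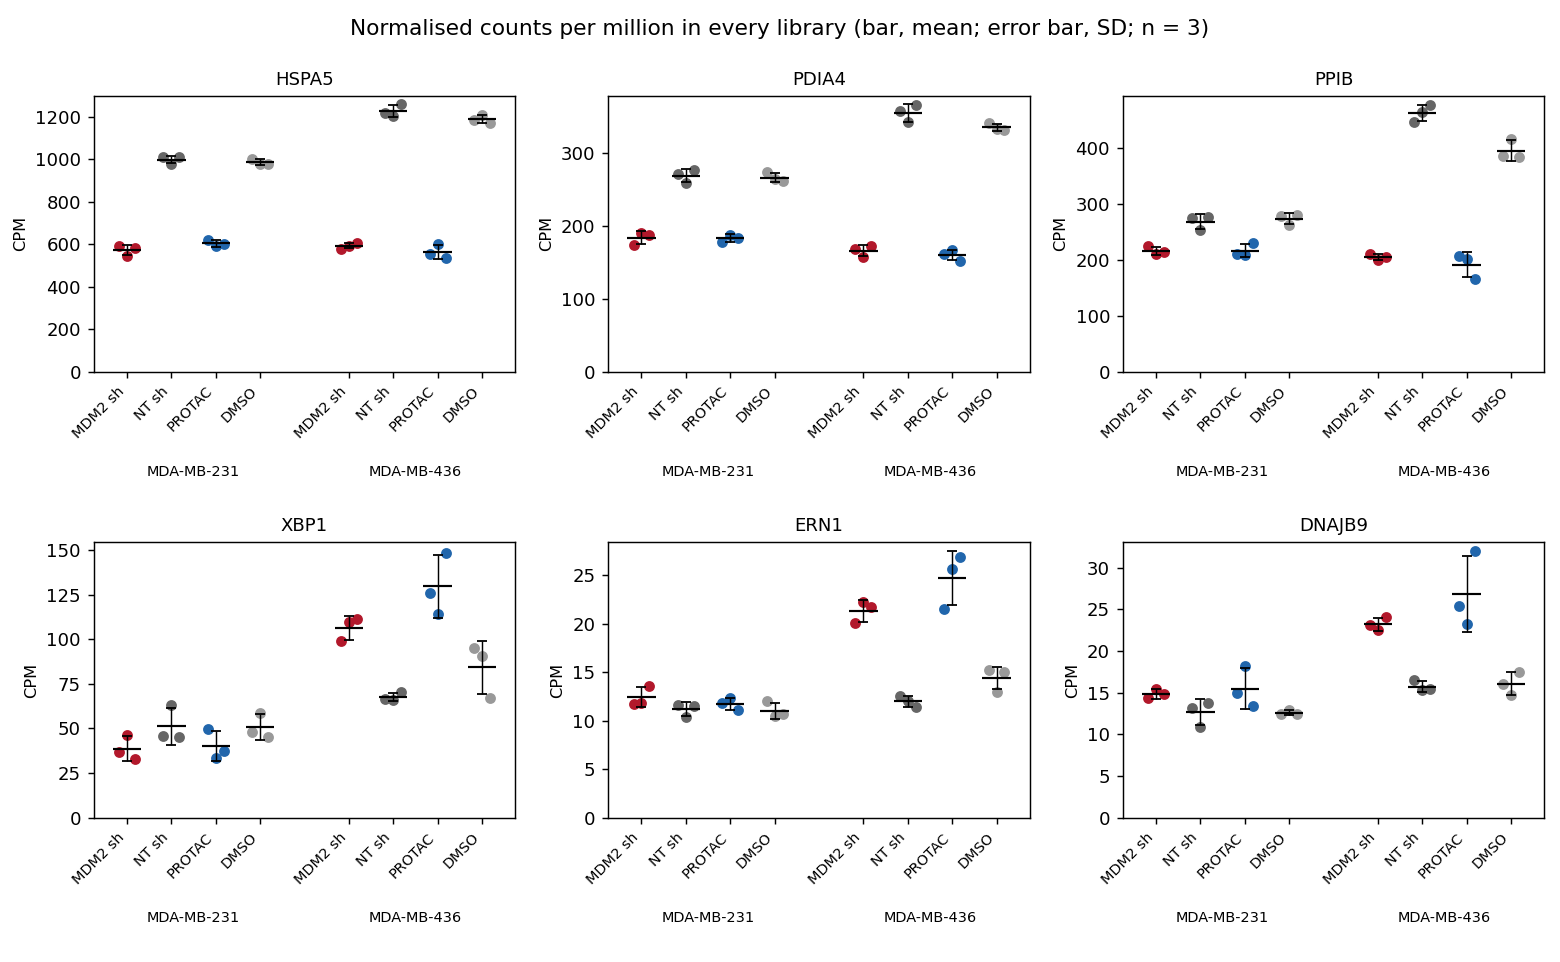
CPM (y axis, linear from 0) of HSPA5, PDIA4, PPIB, XBP1, ERN1 and DNAJB9 in each of the 24 libraries, with a point for each library, a line for the mean of its group and the SD as the error bar, each treatment left of its control. HSPA5 lies between 534.8 and 621.4 CPM in the treated libraries and between 977.9 and 1260.0 CPM in the controls, while the XBP1 groups lie apart in MDA-MB-436 and overlap in MDA-MB-231.

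Of the 8 isomerases, 3 were lower with MDM2 shRNA and 4 with the PROTAC in MDA-MB-231, and 6 and 4 in MDA-MB-436. PDIA4 (ERp72, ENSG00000155660), a disulfide isomerase found with BiP, had 174.1, 189.6 and 187.7 CPM with MDM2 shRNA in MDA-MB-231, against 270.6, 259.2 and 276.1 CPM, and 178.0, 188.0 and 183.6 CPM with the PROTAC, against 273.2, 263.7 and 261.1 CPM. The MDA-MB-436 libraries had 168.7, 157.8 and 171.7 CPM with MDM2 shRNA, against 357.6, 341.8 and 365.6 CPM, and 161.2, 166.8 and 152.3 CPM with the PROTAC, against 340.8, 332.9 and 330.9 CPM. All treated libraries were below all controls of their line. The fold was 0.684 (95% interval 0.639 to 0.732) and 0.689 (0.644 to 0.737) in MDA-MB-231, and 0.468 (0.429 to 0.51) and 0.478 (0.438 to 0.521) in MDA-MB-436. Its edgeR adjusted p was 7.86e-06, 8.96e-06, 1.85e-07 and 2.06e-07.

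PPIB (cyclophilin B, ENSG00000166794), a proline isomerase, had 224.5, 211.0 and 214.5 CPM with MDM2 shRNA in MDA-MB-231, against 274.8, 253.0 and 277.9 CPM, and 211.6, 209.4 and 229.8 CPM with the PROTAC, against 279.6, 262.3 and 279.8 CPM. In MDA-MB-436 its level was 210.9, 200.6 and 205.6 CPM with MDM2 shRNA, against 447.6, 464.7 and 477.1 CPM, and 207.0, 202.1 and 165.8 CPM with the PROTAC, against 385.9, 417.3 and 384.6 CPM. Neither line showed an overlap. The log2 change was -0.31 ± 0.052 and -0.34 ± 0.052 in MDA-MB-231, and -1.17 ± 0.08 and -1.05 ± 0.08 in MDA-MB-436 (SE; edgeR adjusted p = 0.00144, 0.000842, 1.24e-06 and 2.59e-06). PDIA6, another BiP-associated isomerase, was lower by log2 changes of -0.33 and -0.24 in MDA-MB-231 and of -0.75 in both MDA-MB-436 comparisons. PDIA3, the isomerase that works with calnexin and calreticulin, was lower in MDA-MB-436 (log2 -0.73 in both) and, with the PROTAC, in MDA-MB-231 (log2 -0.22), a call lost in 9 of 12 fits that leave out 1 library. P4HB, the classical disulfide isomerase, and TXNDC11 were called lower only with MDM2 shRNA in MDA-MB-436 (log2 -0.33 and -0.27), and the TXNDC11 call was lost without non-targeting replicate 3 (log2 -0.23).

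ERO1B (ENSG00000086619), an oxidase that recharges disulfide isomerases, had 30.7, 27.2 and 29.3 CPM with the PROTAC in MDA-MB-436, against 25.5, 20.5 and 23.8 CPM with DMSO. These libraries did not overlap, and the log2 change of 0.32 ± 0.11 (SE) had an edgeR adjusted p of 0.0436. The call was lost in 10 of 12 fits that leave out 1 library of the line, at log2 changes of 0.25 to 0.36. With MDM2 shRNA it had 23.1, 27.6 and 26.2 CPM, against 22.5, 19.3 and 21.4 CPM, and in MDA-MB-231 7.81, 6.96 and 6.97 CPM, against 5.72, 4.99 and 6.64 CPM, and 7.15, 7.5 and 8.13 CPM with the PROTAC, against 5.62, 5.58 and 7.23 CPM. None of these was called, at log2 changes of 0.28, 0.33 and 0.30.

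TXNDC5 (ENSG00000239264, chr6:7881517-7910814, minus strand), a disulfide isomerase, was the only member called higher in MDA-MB-231, and its counts moved between it and the read-through gene BLOC1S5-TXNDC5, whose exons overlap it on the same strand. With the PROTAC in MDA-MB-231, TXNDC5 had 498.9, 498.8 and 506.7 CPM, against 63.8, 69.9 and 55.6 CPM with DMSO, a log2 change of 2.99 ± 0.79 (SE; edgeR adjusted p = 0.0191). The read-through gene had 0 counts in those 3 PROTAC libraries, against 535.9, 489.4 and 488.2 CPM with DMSO. Where one of the genes was low, the other was high. The summed level was 498.9, 498.8 and 506.7 CPM with the PROTAC, against 599.7, 559.2 and 543.7 CPM with DMSO.

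Switches of this kind also occurred between replicates of a group. With MDM2 shRNA in MDA-MB-231, TXNDC5 had 75.1, 516.8 and 86.1 CPM, against 609.5, 586.4 and 95.4 CPM with non-targeting shRNA, while the sums were 478.1, 516.8 and 460.2 CPM, against 609.5, 586.4 and 560.3 CPM. In MDA-MB-436 the sums were 167.7, 169.5 and 165.7 CPM with MDM2 shRNA, against 277.5, 289.7 and 270.0 CPM, and 181.9, 175.6 and 171.6 CPM with the PROTAC, against 277.8, 263.0 and 299.2 CPM. The summed locus did not overlap between treatment and control in any comparison. Its log2 change, computed after the values of the separate genes had been seen, was -0.27 ± 0.051 and -0.18 ± 0.051 in MDA-MB-231 and -0.74 ± 0.059 and -0.67 ± 0.059 in MDA-MB-436 (SE; edgeR adjusted p = 0.00295, 0.028, 4.17e-06 and 7.52e-06). The sign of the PROTAC change in MDA-MB-231 is thus opposite for TXNDC5 alone and for the sum.

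**Figure D3:**
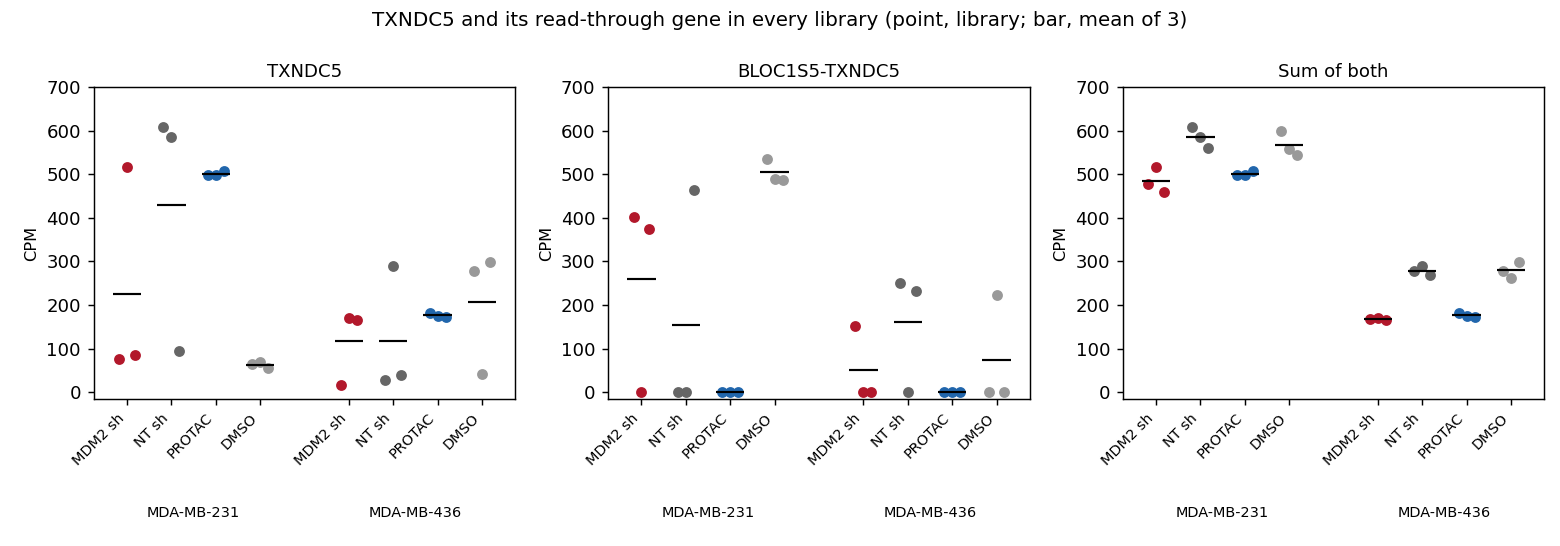
CPM (y axis) of TXNDC5, of BLOC1S5-TXNDC5 and of their sum in each of the 24 libraries, with points for libraries and lines for group means, each treatment left of its control. BLOC1S5-TXNDC5 jumps between 0 and high CPM values within groups, whereas the sum in MDA-MB-436 stays between 165.7 and 181.9 CPM in treated and between 263.0 and 299.2 CPM in control libraries.

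Among the 11 ERAD genes, 4 were lower with MDM2 shRNA and 3 with the PROTAC in MDA-MB-231, and 4 and 3 in MDA-MB-436, where 3 and 2 were higher. Their shares called lower, in that order, were 36.4% (11.6% of all genes tested), 27.3% (11.5%), 36.4% (14.4%) and 27.3% (15.1%). The rises made up 27.3% (16.0% of all genes) and 18.2% (17.3%), so the PROTAC rises were close to the share of all genes. SEL1L (ENSG00000071537), the adaptor of the HRD1 ligase, was lower in all 4 comparisons. It had 86.9, 81.9 and 87.5 CPM with MDM2 shRNA in MDA-MB-231, against 122.0, 117.0 and 114.5 CPM, and 93.4, 92.2 and 88.0 CPM with the PROTAC, against 111.2, 116.8 and 115.1 CPM. In MDA-MB-436 it had 27.2, 30.9 and 30.5 CPM with MDM2 shRNA, against 48.0, 46.4 and 45.7 CPM, and 30.9, 34.8 and 37.3 CPM with the PROTAC, against 55.3, 53.6 and 61.6 CPM. Treated and control libraries lay apart in both lines, at log2 changes of -0.46, -0.33, -0.66 and -0.73 (edgeR adjusted p = 3.1e-05, 0.000383, 0.000205 and 9.55e-05). SYVN1, which encodes HRD1 itself, was uneven within groups and was not called.

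The derlins, membrane proteins of the ERAD exit channel, did not move together. DERL2 (ENSG00000072849) had 30.3, 40.6 and 32.3 CPM with MDM2 shRNA in MDA-MB-436, against 23.1, 26.9 and 22.1 CPM, and 37.7, 32.7 and 31.8 CPM with the PROTAC, against 19.8, 22.9 and 25.9 CPM. It was higher without overlap in both, at log2 changes of 0.52 ± 0.14 and 0.58 ± 0.14 (SE; edgeR adjusted p = 0.0147 and 0.00787), and the MDM2 shRNA call was lost without non-targeting replicate 1 or 3 or MDM2 shRNA replicate 2 (log2 0.38 to 0.48). In MDA-MB-231 its libraries overlapped: 47.7, 57.5 and 60.6 CPM with MDM2 shRNA, against 43.2, 42.9 and 48.0 CPM, and 58.2, 51.4 and 45.7 CPM with the PROTAC, against 41.9, 48.4 and 60.3 CPM. DERL1 was called in MDA-MB-436 only, where it was lower (log2 -0.24 and -0.23), and these calls were lost in 4 and 3 of the fits that leave out 1 library.

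DERL3 (ENSG00000099958), the least expressed member, had 0.253, 0.284 and 0.426 CPM with MDM2 shRNA in MDA-MB-231, against 0.925, 0.7 and 0.762 CPM, and 0.359, 0.358 and 0.393 CPM with the PROTAC, against 0.615, 0.754 and 1.43 CPM. The treated libraries were below the controls, at log2 changes of -1.31 ± 0.35 and -1.33 ± 0.35 (SE; edgeR adjusted p = 0.0205 and 0.0176). The MDM2 shRNA call was lost on leaving out MDM2 shRNA replicate 1 or 2 or non-targeting replicate 1 (log2 -1.23 to -1.16). The PROTAC call was lost on leaving out PROTAC replicate 1 or 2 or DMSO replicate 3 (log2 -1.31 to -0.89). In MDA-MB-436 DERL3 had 3.76, 3.36 and 2.26 CPM with MDM2 shRNA, against 1.91, 2.01 and 1.66 CPM, and 2.68, 2.0 and 3.38 CPM with the PROTAC, against 1.89, 0.787 and 1.93 CPM. These groups did not overlap either, with the treated libraries above, but neither change was called (log2 0.75 and 0.80; edgeR adjusted p = 0.114 and 0.0947).

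EDEM2 (ENSG00000088298), which starts mannose trimming of glycoproteins bound for ERAD, had 16.8, 18.8 and 15.8 CPM with MDM2 shRNA in MDA-MB-231, against 22.3, 21.7 and 22.9 CPM, and 15.1, 14.9 and 13.9 CPM with the PROTAC, against 25.1, 20.4 and 24.6 CPM. It was lower without overlap in both (log2 -0.38 ± 0.094 and -0.68 ± 0.095, SE; edgeR adjusted p = 0.0134 and 0.000428), and the MDM2 shRNA call was lost without MDM2 shRNA replicate 3 (log2 -0.33). The MDA-MB-436 libraries had 23.7, 21.8 and 22.0 CPM with MDM2 shRNA, against 26.2, 28.4 and 28.0 CPM, a call at edgeR adjusted p = 0.0365 that was lost in 7 of 12 fits that leave out 1 library (log2 -0.33 to -0.27). With the PROTAC it had 25.0, 22.7 and 20.5 CPM, against 22.2, 23.2 and 25.1 CPM, which overlapped. Its paralogue EDEM1 was called in MDA-MB-436 only, at log2 changes of -0.44 and -0.47, and EDEM3 was uneven and not called. OS9, the lectin that hands glycoproteins to HRD1, was called only with MDM2 shRNA in MDA-MB-231 (log2 -0.34), a call lost in 9 of 12 fits that leave out 1 library.

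SELENOS (VIMP, ENSG00000131871), which recruits the VCP ATPase to derlins, had 71.2, 72.7 and 68.4 CPM with MDM2 shRNA in MDA-MB-436, against 60.1, 59.8 and 64.2 CPM, and 68.5, 69.6 and 71.3 CPM with the PROTAC, against 50.3, 53.1 and 58.7 CPM. The treated libraries were above the controls in both, at log2 changes of 0.20 ± 0.07 and 0.37 ± 0.07 (SE; edgeR adjusted p = 0.0467 and 0.00184), and the MDM2 shRNA call was lost in 10 of 12 fits that leave out 1 library (log2 0.18 to 0.25). HERPUD1 (ENSG00000051108), a scaffold of the HRD1 complex, had 27.0, 32.4 and 32.5 CPM with MDM2 shRNA in MDA-MB-436, against 25.5, 23.9 and 17.7 CPM, which did not overlap (log2 0.45 ± 0.13, SE; edgeR adjusted p = 0.0236). That call was lost without MDM2 shRNA replicate 2 or 3 or non-targeting replicate 3 (log2 0.32 to 0.41). With the PROTAC, HERPUD1 had 27.7, 24.1 and 26.9 CPM, against 24.5, 26.2 and 24.9 CPM, and these overlapped.

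Of the UPR sensors and XBP1, XBP1 and ERN1 were higher in both MDA-MB-436 comparisons and ATF6 was lower in both MDA-MB-231 comparisons. XBP1 (ENSG00000100219, chr22:28794555-28800597, minus strand), the transcription factor whose messenger RNA IRE1 splices, had 98.8, 109.4 and 111.1 CPM with MDM2 shRNA in MDA-MB-436, against 66.6, 66.2 and 70.4 CPM, and 125.9, 114.3 and 148.5 CPM with the PROTAC, against 94.9, 90.8 and 67.0 CPM. Every treated library was above every control. The fold was 1.57 (95% interval 1.29 to 1.91) and 1.54 (1.26 to 1.87), with edgeR adjusted p of 0.00246 and 0.0031. In MDA-MB-231 it had 36.8, 46.4 and 33.0 CPM with MDM2 shRNA, against 45.7, 63.2 and 45.1 CPM, and 49.6, 33.6 and 37.3 CPM with the PROTAC, against 48.1, 58.9 and 45.5 CPM. Those groups overlapped, at log2 changes of -0.41 ± 0.19 and -0.34 ± 0.19 (SE; edgeR adjusted p = 0.155 and 0.239). Gene counts do not separate spliced from unspliced XBP1 messenger RNA.

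ERN1 (IRE1, ENSG00000178607, chr17:64039142-64130819, minus strand) had 20.1, 22.2 and 21.7 CPM with MDM2 shRNA in MDA-MB-436, against 12.5, 12 and 11.4 CPM, and 21.5, 25.6 and 26.9 CPM with the PROTAC, against 15.2, 13.0 and 15.0 CPM. It was higher without overlap in both, at folds of 1.78 (95% interval 1.51 to 2.11) and 1.71 (1.45 to 2.02) and edgeR adjusted p of 0.000142 and 0.000218. In MDA-MB-231 it had 11.7, 11.8 and 13.6 CPM with MDM2 shRNA, against 11.6, 10.4 and 11.5 CPM, and 11.8, 12.3 and 11.1 CPM with the PROTAC, against 12, 10.5 and 10.7 CPM. Neither change was called (log2 0.15 and 0.08; edgeR adjusted p = 0.314 and 0.599).

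ATF6 (ENSG00000118217, chr1:161766294-161964070, plus strand), the sensor that is cleaved into a transcription factor, was lower in MDA-MB-231. It had 76.5, 77.9 and 74.5 CPM with MDM2 shRNA, against 103.6, 99.6 and 94.3 CPM, and 78.9, 78.5 and 72.6 CPM with the PROTAC, against 96.3, 97.1 and 96.3 CPM, with no overlap and log2 changes of -0.38 ± 0.048 and -0.33 ± 0.048 (SE; edgeR adjusted p = 0.0002 and 0.000524). In MDA-MB-436 its level was 37.1, 39.2 and 39.9 CPM with MDM2 shRNA, against 44.7, 45.3 and 42.7 CPM, and 37.9, 44.6 and 41.0 CPM with the PROTAC, against 51.3, 44.6 and 45.6 CPM. The treated libraries were at or below the controls there, but the log2 changes of -0.19 and -0.20 were not called (edgeR adjusted p = 0.11 and 0.0973).

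Of the 9 genes of the translocon, the TRAP complex and signal peptidase, 1 was lower with MDM2 shRNA and 3 with the PROTAC in MDA-MB-231, and 5 and 4 in MDA-MB-436, and none was higher. Lower calls thus took up 11.1% (11.6% of all genes tested), 33.3% (11.5%), 55.6% (14.4%) and 44.4% (15.1%). The first of these shares was no larger than that of all genes, and the group's median log2 change there was 0.0. SPCS3 (ENSG00000129128), a subunit of signal peptidase, had 65.4, 65.3 and 66.0 CPM with MDM2 shRNA in MDA-MB-436, against 134.9, 136.7 and 137.1 CPM, and 60.5, 63.8 and 76.7 CPM with the PROTAC, against 151.7, 139.7 and 144.4 CPM. The groups lay far apart, at folds of 0.481 (95% interval 0.425 to 0.545) and 0.461 (0.407 to 0.523) and edgeR adjusted p of 3.41e-06 and 2.09e-06. In MDA-MB-231 it had 154.0, 147.3 and 158.5 CPM with MDM2 shRNA, against 147.8, 150.1 and 135.2 CPM, and 165.7, 161.2 and 148.4 CPM with the PROTAC, against 147.3, 168.1 and 156.1 CPM. Those overlapped, at folds of 1.06 (0.964 to 1.17) and 1.01 (0.915 to 1.11).

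The other signal peptidase subunits SPCS1 and SPCS2 were not called in any comparison. SSR2 of the TRAP complex was lower in all 4 (log2 -0.18, -0.16, -0.58 and -0.52), though its calls in MDA-MB-231 were lost in 4 and 6 of the fits that leave out 1 library. SSR3 was called in MDA-MB-436 only (log2 -0.45 and -0.37). SEC61G, a small subunit of the channel, was lower with the PROTAC in MDA-MB-231 (log2 -0.28) and with both treatments in MDA-MB-436 (log2 -0.42 in both), and SEC61B with the PROTAC in MDA-MB-231 (log2 -0.28) and with MDM2 shRNA in MDA-MB-436 (log2 -0.59). The pore subunit SEC61A1 ranged from 73.2 to 223.4 CPM among the MDM2 shRNA libraries of MDA-MB-436 and from 106.2 to 314.6 CPM among the non-targeting ones, a spread within groups in which no change was called. SSR1 was uneven in the same way, and its exons overlap those of CAGE1 on the same strand.

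The members with ER stress elements were found on both sides of these results. Of the 11 members with an ERSE or ERSE-II in the window, 6 were lower in all 4 comparisons (HSPA5, HSP90B1, HYOU1, SDF2L1, CALR and PDIA6) and 1, XBP1, was higher in both MDA-MB-436 comparisons. Of the 29 with neither, 6 were lower in all 4 (MANF, PDIA4, PPIB, SEL1L, SSR2 and UGGT1) and 4 were higher in both MDA-MB-436 comparisons (DERL2, DNAJB9, ERN1 and SELENOS). Only exact matches within the window were searched, so elements that vary in sequence or lie outside it were not found. A member with neither match may therefore still hold such an element. How many of all genes were called repeatedly was not counted. These counts are a description and were not tested.

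Whether the PROTAC and MDM2 shRNA changed the members differently was tested as the difference between their effects within a line. No member was called in either line by edgeR (0 of 44 each), and DESeq2 also called 0. Of all genes, 0.00484% were called in MDA-MB-231, beside 0.00441% for MDA-MB-436. At an unadjusted p under 0.05 there were 2 members in MDA-MB-231, CANX and TXNDC5, beside 977 of 20675 genes tested. In MDA-MB-436 there was 1, CRELD2, beside 1230 of 22663 genes. Each had a higher PROTAC effect, but CANX and TXNDC5 were unevenly counted between replicates. For HSPA5 the PROTAC effect over the MDM2 shRNA effect was 1.07-fold (95% interval 0.986 to 1.16) in MDA-MB-231 and 0.98-fold (0.876 to 1.1) in MDA-MB-436. For XBP1 it was 1.05-fold (0.701 to 1.57) and 0.979-fold (0.743 to 1.29), for ERN1 0.957-fold (0.784 to 1.17) and 0.961-fold (0.761 to 1.21), and for ATF6 1.03-fold (0.93 to 1.14) and 0.997-fold (0.833 to 1.19). The libraries were also set directly against each other, a comparison added after the data had been seen. Between PROTAC and MDM2 shRNA libraries, 3 of 20675 genes were called for MDA-MB-231 and 1 of 22663 for MDA-MB-436. Between DMSO and non-targeting libraries the calls were 0 and 4 genes. No member was among any of these. At an unadjusted p under 0.05 the MDA-MB-436 controls differed in 11 of 44 members, beside 2579 of 22663 genes tested (11.4%). The treated libraries of that line differed in 3 of 44 members, beside 1051 genes (4.64%). For MDA-MB-231, 1 of 44 members differed between the controls and 1 of 44 between the treated libraries. Of 20675 genes, 903 (4.37%) and 1113 (5.38%) did.

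Treatment effects on the members differed between the lines. In a fit of all 24 libraries, 18 of 44 members responded differently to MDM2 shRNA in the 2 lines, where 19.7% of 24719 genes did so. In MDA-MB-436 relative to MDA-MB-231, 4 were higher (9.09%) and 14 lower (31.8%), beside 9.94% and 9.77% of all genes. With the PROTAC 19 of 44 members differed, where 22.3% of genes did. Of the 44, 6 were higher (13.6%) and 13 lower (29.5%), beside 11.8% and 10.5% of all genes. SPCS3 differed by log2 -1.16 ± 0.095 and -1.13 ± 0.095 (SE; MDM2 shRNA, then PROTAC; edgeR adjusted p = 4.01e-08 and 5.05e-08). DERL3 differed by 2.05 ± 0.49 and 2.13 ± 0.49 (edgeR adjusted p = 0.00496 and 0.00322), with every level under 2 CPM in MDA-MB-231. XBP1 differed by 1.04 ± 0.23 and 0.96 ± 0.23 (edgeR adjusted p = 0.00283 and 0.00487). SIL1 differed by 0.89 ± 0.17 and 1.01 ± 0.17 (edgeR adjusted p = 0.000775 and 0.000231). ERN1 differed by 0.67 ± 0.14 and 0.69 ± 0.14 (edgeR adjusted p = 0.00135 and 0.000917). HSPA5, which fell in both lines, fell further in MDA-MB-436, by log2 -0.27 and -0.37 (edgeR adjusted p = 0.016 and 0.00131). ATF6 was not called to differ (log2 0.17 and 0.14; edgeR adjusted p = 0.247 and 0.334).

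**Figure D4:**
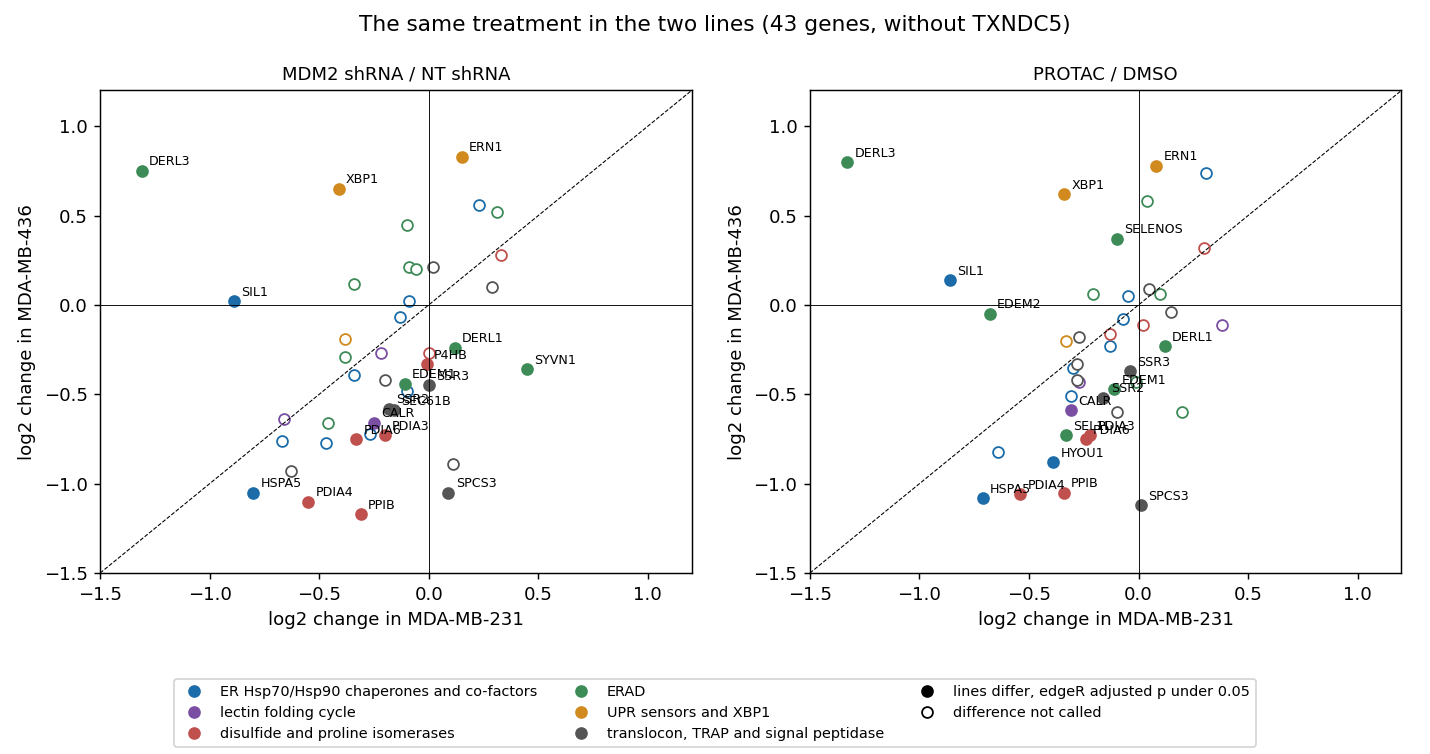
Log2 change of 43 members (TXNDC5 left out) in MDA-MB-436 (y axis) against that in MDA-MB-231 (x axis), with a panel for each treatment and a dashed diagonal of equal change. Filled points are members whose change differed between the lines in edgeR. SPCS3 lies far below the diagonal and XBP1, ERN1, SIL1 and DERL3 above it in both panels, and HSPA5 lies at the lower left.

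The control libraries gave the starting levels of the members in each line. The 2 control groups of MDA-MB-436 were set against those of MDA-MB-231. Of the 44 members, 18 (40.9%) were higher, beside 35.9% of all genes, and 18 (40.9%) lower, beside 30.9%. ERO1B was 3.57-fold higher in MDA-MB-436 (95% interval 3.13 to 4.07; edgeR adjusted p = 2.83e-13) and PDIA6 2.04-fold (1.94 to 2.15; edgeR adjusted p = 1.29e-15). SIL1 was lower at a fold of 0.386 (0.34 to 0.438; edgeR adjusted p = 1.8e-11), SEL1L at 0.427 (0.399 to 0.457; edgeR adjusted p = 4.75e-15) and ATF6 at 0.449 (0.418 to 0.481; edgeR adjusted p = 1.76e-14). HSPA5 differed less, at 1.17-fold (1.11 to 1.24; edgeR adjusted p = 2.49e-05). With 1 line on each side, these values compare cultures of 2 lines. They take the 2 control groups of a line together. At an unadjusted p under 0.05, 11 of 44 members differed between those of MDA-MB-436, beside 11.4% of genes.

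Per length of exon, CALR was the most abundant member in the MDA-MB-231 controls, at 470.7 ± 8.7 CPM per kb, ahead of HSP90B1 at 259.5 ± 6.3 and HSPA5 at 259.2 ± 4.14 CPM per kb, which did not differ beyond their spread (SD over 6 control libraries). In the MDA-MB-436 controls HSPA5 came first at 303.5 ± 13.3 CPM per kb, followed by CALR at 266.9 ± 21.0, PPIB at 220.8 ± 23.8 and PDIA6 at 219.3 ± 10.2 CPM per kb, the last pair within their spread. The sensor ERN1 was near the bottom in both lines, at 1.19 ± 0.127 CPM per kb in MDA-MB-436 and 1.04 ± 0.0635 in MDA-MB-231. DERL3 was last, at 0.44 ± 0.119 and 0.232 ± 0.0793 CPM per kb.

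**Figure D5:**
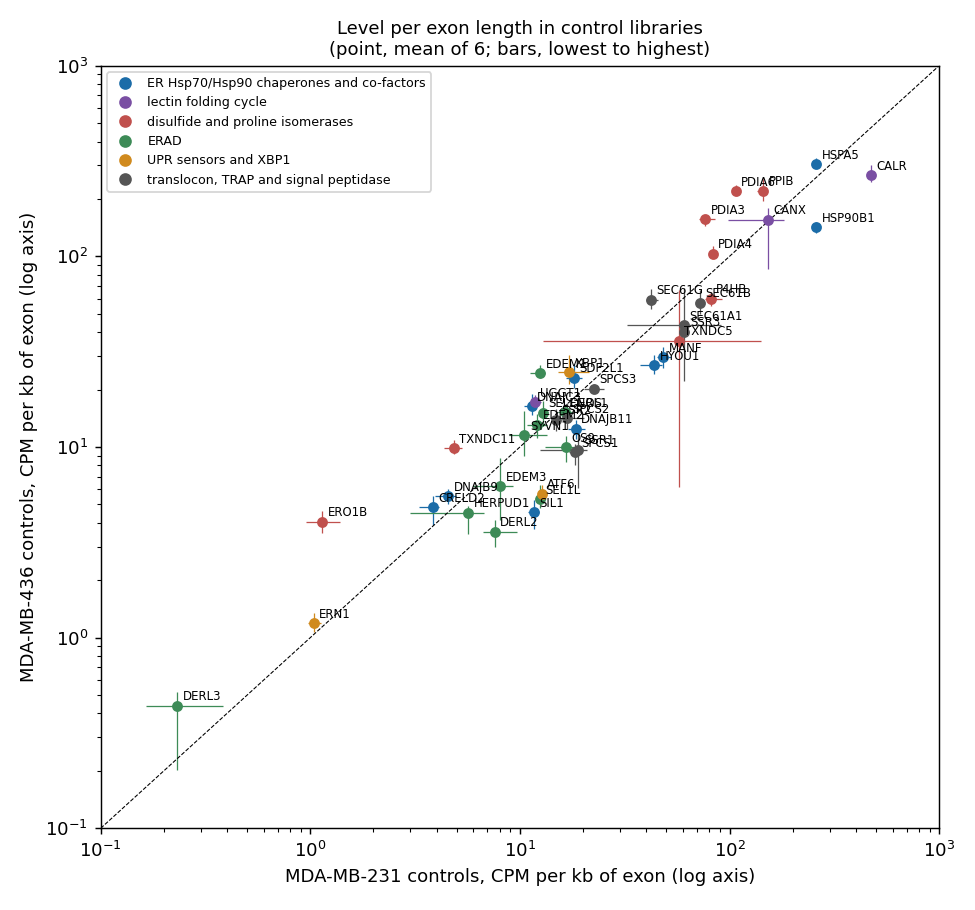
Mean level of each member in the 6 control libraries of MDA-MB-436 (y axis) against that in MDA-MB-231 (x axis), both in CPM per kb of exon on log axes, with bars from the lowest to the highest library and a dashed line of equal level. CALR, HSPA5 and HSP90B1 lie at the upper right and DERL3 at the lower left.

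Other genes of the pathway, 104 in all (103 tested in MDA-MB-436), were counted in the same way. With MDM2 shRNA and the PROTAC, 17 and 18 were lower and 11 and 8 higher in MDA-MB-231, and 31 and 34 were lower and 10 and 13 higher in MDA-MB-436, at median log2 changes of -0.03, -0.04, -0.18 and -0.17. As shares, 16.3%, 17.3%, 30.1% and 33.0% were lower, beside 11.6%, 11.5%, 14.4% and 15.1% of all genes tested. The shares called higher were 10.6%, 7.69%, 9.71% and 12.6%, beside 11.1%, 11.1%, 16.0% and 17.3% of all genes. In UPR signalling, PPP1R15A (GADD34), the phosphatase subunit that restores translation, averaged 236.4 ± 10.9 CPM with MDM2 shRNA in MDA-MB-231, against 162.0 ± 6.13 CPM, and 229.8 ± 13.6 CPM with the PROTAC, against 159.1 ± 7.59 CPM. In MDA-MB-436 it averaged 471.6 ± 4.44 CPM with MDM2 shRNA, against 128.8 ± 3.65 CPM, and 449.0 ± 34.4 CPM with the PROTAC, against 113.7 ± 6.98 CPM (SD, n = 3 each). It was higher in all 4, at folds of 1.46, 1.44, 3.66 and 3.95 (edgeR adjusted p = 5.01e-05, 6.27e-05, 1.65e-08 and 1.03e-08).

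DDIT3 (CHOP), a transcription factor induced through PERK and ATF4, had 43.8, 40.4 and 44 CPM with MDM2 shRNA in MDA-MB-436, against 11, 10.6 and 11.4 CPM, and 44, 46.5 and 37.5 CPM with the PROTAC, against 10.6, 10.9 and 10.6 CPM. It was 3.88-fold (95% interval 3.36 to 4.49) and 3.99-fold (3.45 to 4.62) higher there (edgeR adjusted p = 1.17e-07 and 1.1e-07), and in MDA-MB-231 its libraries overlapped and no change was called. ATF4 was lower in MDA-MB-231 (log2 -0.34 and -0.28; edgeR adjusted p = 0.00028 and 0.00114) and not called in MDA-MB-436. EIF2AK3, which encodes PERK, was not called in any comparison. ATF6B, the paralogue of ATF6, was lower with MDM2 shRNA and with the PROTAC in MDA-MB-231 (log2 -0.71 and -0.52).

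VCP, the ATPase that pulls ERAD substrates from the membrane, was lower in all 4 comparisons, at folds of 0.879, 0.918, 0.543 and 0.534 (edgeR adjusted p = 0.00329, 0.029, 1.29e-06 and 1.02e-06). AUP1, which recruits a ubiquitin-conjugating enzyme to the ER, was higher in all 4 (log2 0.23, 0.19, 0.61 and 0.72). ERLIN1, an ER membrane protein of the prohibitin family, was lower in MDA-MB-231 (log2 -0.24 and -0.19) and higher in MDA-MB-436 (log2 0.47 and 0.36). The ERAD ubiquitin-conjugating enzyme UBE2J1 was lower in MDA-MB-436 (log2 -0.42 and -0.36), and FAF2, an ER anchor for VCP, was higher in MDA-MB-231 (log2 0.19 and 0.20).

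Of 33 other folding enzymes (32 tested in MDA-MB-436), 0 and 5 were lower and 2 and 3 higher in MDA-MB-231 (MDM2 shRNA, then PROTAC). In MDA-MB-436, 12 and 14 were lower and 1 and 1 higher. The shares lower were 0%, 15.2%, 37.5% and 43.8%, beside 11.6%, 11.5%, 14.4% and 15.1% of all genes tested. The shares higher were 6.06%, 9.09%, 3.12% and 3.12%, beside 11.1%, 11.1%, 16.0% and 17.3% of all genes. DNAJC1 was higher in MDA-MB-436 (log2 0.79 and 0.86; edgeR adjusted p = 5.75e-06 and 2.87e-06), where RCN2 (log2 -0.63 and -0.47) and LMAN1, a cargo receptor for glycoproteins (log2 -0.52 and -0.58), were lower. The proline isomerase FKBP14 was higher in MDA-MB-231 (log2 0.36 and 0.26) and lower in MDA-MB-436 (log2 -0.37 and -0.41). TMX4 was higher in MDA-MB-231 (log2 0.26 and 0.35), and QSOX1, a sulfhydryl oxidase, was lower there with the PROTAC (log2 -0.18). In translocation and N-glycosylation, SRPRA, a subunit of the signal recognition particle receptor, was lower in all 4 comparisons (log2 -0.29, -0.16, -0.47 and -0.50). GANAB, the alpha subunit of glucosidase II, was lower in MDA-MB-231 (log2 -0.35 and -0.22) and, with MDM2 shRNA, in MDA-MB-436 (log2 -0.17). TRAM2 was lower with MDM2 shRNA in MDA-MB-231 (log2 -0.16) and with both treatments in MDA-MB-436 (log2 -0.58 and -0.80), and UGGT2 was lower in MDA-MB-231 (log2 -0.43 and -0.44).

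Exon overlap limits some of these counts. By GENCODE 29, 24 of the 44 members share exon bases with another gene, 3 of them (TXNDC5, SYVN1 and SSR1) on the same strand. Whether reads were counted by strand is not given in the sources used here. HSP90B1, HYOU1, SIL1, DNAJB9, CALR, PDIA6, PPIB, SPCS3, DERL2 and DERL3 overlap a gene on the opposite strand and are uncertain to that extent. HSPA5, PDIA4, SEL1L, XBP1, ERN1, ATF6, EDEM2, SELENOS, HERPUD1 and ERO1B share no exon bases with another gene.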

How the data were processed

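RNA from 24 libraries was analysed, 3 in each of 8 groups named by the labels. The culture medium was DMEM with 10% serum, RNA came from TRIzol lysates, and NEBNext Ultra II libraries were run on an Illumina HiSeq, per the labels' protocols. Per the submitters' processing notes, cutadapt 2.4, HISAT2, StringTie and edgeR were used with GRCh38, with the role of each not given in the sources used here. The deposited values are whole-number counts per Ensembl gene. In every library, genes with a count of 4 outnumbered the mean of those at the neighbouring counts, by ratios of 1.198 to 1.636. Whether the values are plain numbers of reads is not given, and the cause of this excess was not tested. Of 60675 identifiers, 57055 were in GENCODE 29 and held 99.93% of counts. Totals ran from 33.4 to 174.7 M with a median of 64.0 M (M, 1e6 counts), and 0 pairs of libraries were identical.

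The members and the lists of other genes were chosen with earlier results of these data known. Counts were filtered with filterByExpr and scaled by TMM, and the 12 libraries of a line were fitted together with a mean per group in edgeR 4.0.16 (R 4.3.3; quasi-likelihood test, 8 residual degrees of freedom), with Benjamini-Hochberg adjustment over all genes tested and a threshold of 0.05. Differences between lines and control levels came from a fit of all 24 libraries (16 residual degrees of freedom, 24719 genes). CPM values are counts over TMM-scaled totals; levels per kb divide CPM by the GENCODE exon length. The fit was tested on simulated data.

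Members given in full were, in each comparison, up to 6 of the largest rises and 6 of the largest falls called without overlap of libraries, and HSPA5, XBP1, ATF6 and ERN1 throughout. In tests of a difference they were the 4 largest called. Up to 2 genes per comparison were named from each other pathway list, by smallest adjusted p. CANX, CALR and SEL1L were given in full after their values were seen. The PDIA6 difference between the control libraries of the lines, and EIF2AK3, were also named outside these rules. Alternatives were DESeq2 1.42.0, limma 3.58.1 (voom), other scalings, filters and sets of libraries, counts divided by 4, and leaving out each library. Same-numbered libraries did not deviate together (correlations -0.03 to 0.0378), so replicate numbers were not used as pairs. Promoters came from RefSeq (GRCh38.p14).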

Additional observations from a re-analysis of the deposited data

Results flagged for a closer look

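For 22 members the test of the difference between the lines passed the threshold in at least 1 treatment (MDA-MB-436 effect minus MDA-MB-231 effect, edgeR adjusted p under 0.05, log2 scale), which flags 37 values. In the single tests 18 (MDM2 shRNA) and 19 (PROTAC) of the 44 members passed, beside 19.7% and 22.3% of 24719 genes. How many of all genes passed in at least 1 treatment was not counted, so the 22 have no background beside them. The treatments share no libraries, but the same 2 lines stand behind both.

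In the chaperones, HSPA5 differed by -0.27 with MDM2 shRNA and -0.37 with the PROTAC, HYOU1 by -0.49 with the PROTAC, and SIL1 by 0.89 and 1.01. CALR of the lectin cycle differed by -0.42 and -0.28. Among the isomerases, PDIA3 differed by -0.54 and -0.51, PDIA4 by -0.57 and -0.52, PDIA6 by -0.44 and -0.5, PPIB by -0.88 and -0.7, and P4HB by -0.34 with MDM2 shRNA.

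Among ERAD genes, EDEM1 differed by -0.34 and -0.36, DERL1 by -0.37 and -0.35, and DERL3 by 2.05 and 2.13. With MDM2 shRNA SYVN1 differed by -0.82, and with the PROTAC SEL1L differed by -0.4, EDEM2 by 0.63 and SELENOS by 0.47. SYVN1 shares exon bases with FAU on the same strand and was uneven between replicates. XBP1 differed by 1.04 and 0.96 and ERN1 by 0.67 and 0.69. In the translocon group, SSR2 differed by -0.41 and -0.35, SSR3 by -0.48 and -0.33, SPCS3 by -1.16 and -1.13, and SEC61B by -0.45 with MDM2 shRNA.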

How the results depend on the processing

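HSPA5, HSP90B1, PDIA4, PDIA6, PPIB and SEL1L kept their calls in all 4 comparisons under every alternative that gave them a value, and so did XBP1, ERN1, DNAJB9 and SPCS3 in MDA-MB-436 and SIL1 and ATF6 in MDA-MB-231. Of the members' values under alternatives, 3714 kept direction and side of the threshold, 177 lost a call, 58 gained one and 1 turned round: TXNDC5 with the PROTAC in MDA-MB-231, at -0.18 once summed with its read-through gene, against 2.99 alone. Counts of members below are for MDM2 shRNA and the PROTAC in MDA-MB-231, then in MDA-MB-436. Without TMM scaling, 3 and 2 members were higher in MDA-MB-231, and the medians were -0.09, -0.06, -0.17 and -0.07. With genes of overlapping exons left out, which removes 24 members, 10, 11, 11 and 9 were lower, 0 were higher with the PROTAC in MDA-MB-231 and 3 with MDM2 shRNA in MDA-MB-436, and the last 3 medians were -0.28, -0.28 and -0.34. At a threshold of 0.01, 11 were lower with MDM2 shRNA and 0 higher with the PROTAC in MDA-MB-231, and 3 higher with MDM2 shRNA in MDA-MB-436. The single rise with the PROTAC in MDA-MB-231, TXNDC5, became 0 in DESeq2, in the 24-library fit and with uneven members left out (an alternative added after seeing the data), and 2 with 6 libraries. The median with MDM2 shRNA in MDA-MB-436 was -0.31 in voom. With the replicate block, which the data gave no ground for, the median with the PROTAC in MDA-MB-436 was -0.29, and no count of members moved past 1.5 times. Leaving out 1 library gave 13 to 19, 15 to 19, 18 to 24 and 16 to 19 lower members, and 0 to 2 higher with the PROTAC in MDA-MB-231, 3 to 6 and 5 to 6 in MDA-MB-436. The medians then ran between -0.23 and -0.18, -0.18 and -0.12, -0.43 and -0.31, and -0.31 and -0.19. The lowest count of any member in a library was 16. The cause of these shifts was not tested, except that removed genes lower the counts by construction.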
